A study of Mus musculus with 12 samples.

Results

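The genes described here are the repressor arm of the circadian clock with its output genes and the BHLHE repressors: Nr1d1, Dbp, Per1, Per2, Cry1, Cry2, Bhlhe40, Bhlhe41, Nfil3 and Rora. They were taken by symbol from the deposited gene tables, in which they are 10 of 30154 genes, and all 10 passed the filter on low counts that left 15890 genes for testing. The set was chosen by the measured day 0 difference of Nr1d1 and Dbp, which were low in knockout cells before injury; the other 8 genes were added as parts of the same loop. Every comparison that uses the day 0 libraries is therefore a description without a test, and the tests below compare day 7 and day 21 libraries only, in a fit whose filter, scaling and estimate of spread use all 12 libraries.

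The cells were muscle stem cells sorted by flow cytometry from the tibialis anterior, gastrocnemius and quadriceps of C57BL/6J mice aged 2 to 3 months. One genotype was wild type (WT) and the other was a knockout of Sestrin1 and Sestrin2 (KO), genes for stress-induced proteins that restrain mTORC1 signalling. RNA was sequenced before injury (day 0) and at 7 and 21 days after injury, with 2 libraries for each genotype and day and 12 libraries in all. The labels give neither the agent of injury nor the hour at which tissue was taken, and they do not say whether the libraries of a group came from separate animals, so the p-values measure the spread between these libraries.

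The libraries held 28396862 to 38950614 estimated counts. Sesn2, one of the deleted genes, was at 75.1 and 84.3 CPM (counts scaled to the size of each library) in WT and 5.47 and 7.03 CPM in KO at day 0, and at 44.9 and 47.4 CPM against 2.36 and 1.92 CPM at day 7. At day 21 it went against the label of 2 libraries: the library labelled WT replicate 1 had 8.92 CPM and the one labelled KO replicate 2 had 108 CPM, while WT replicate 2 had 82.1 CPM and KO replicate 1 had 9.86 CPM. Sesn1, the other deleted gene, was lower in KO but not near 0, at 70.3 and 68.6 CPM in WT and 46 and 45.8 CPM in KO at day 0 and at 84 and 67.9 CPM against 28.4 and 22.4 CPM at day 7. At day 21 Sesn1 split as Sesn2 did, at 43.7 and 41.7 CPM in the replicate 1 libraries labelled WT and KO and at 78.3 and 67.2 CPM in the replicate 2 libraries. Groups at day 21 were kept by label. Differences of members that use day 21 are given with and without those 2 libraries where named. Values of other genes and lists at day 21 are by label only. Summed over the marker list of muscle stem cells (9 genes, among them Pax7 and Myf5), the libraries had 962 to 2460 CPM, and summed over the list of fibro-adipogenic cells (5 genes, among them Pdgfra and Dcn) they had 3000 to 10300 CPM. Most of the latter sum was Dcn, with group means of 2610 to 8730 CPM, while Pdgfra had 19.7 to 74.8 CPM, Ly6a 9.06 to 26 CPM, Col15a1 15.4 to 83.7 CPM and Lum 97.5 to 443 CPM. Immune markers summed to 2.95 to 23.8 CPM.

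In the mammalian clock the activators ARNTL (BMAL1) and CLOCK bind E-boxes and switch on the Per and Cry genes, whose proteins then block that activation. The same activators switch on Nr1d1, whose product REV-ERBα represses Arntl through ROR elements, where the receptor RORα activates, and they switch on Dbp, whose product activates genes through D-boxes that the Nfil3 product represses. Bhlhe40 and Bhlhe41 encode repressors that compete at E-boxes. In this scheme Nr1d1 and Dbp peak early and close together, Per genes soon after, Cry1 and Nfil3 later, and Arntl and Npas2 opposite to Nr1d1.

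Promoter windows from RefSeq (GRCm38.p6, 250 bases before to 50 after a start site) were found for 8 of the 10 genes, all except Per2 and Bhlhe40. The 250 bases before the start site are printed, 5′ to 3′ on the strand of the gene, for the pair with the largest day 0 difference, Nr1d1 (chr11:98775378-98775627, minus strand) and Dbp (chr7:45704997-45705246, plus strand), and for 3 genes whose window held a clock motif, Per1 (chr11:69098699-69098948, plus strand, the first of its 2 windows), Cry1 (chr10:85185055-85185304, minus strand) and Nfil3 (chr13:52981040-52981289, minus strand). Capitals mark the E-box CACGTG and AGGTCA, which was read as TGACCT where it lay on the other strand. AGGTCA is called the ROR element here, but the A or T rich bases before it in the full element were not required.
Nr1d1: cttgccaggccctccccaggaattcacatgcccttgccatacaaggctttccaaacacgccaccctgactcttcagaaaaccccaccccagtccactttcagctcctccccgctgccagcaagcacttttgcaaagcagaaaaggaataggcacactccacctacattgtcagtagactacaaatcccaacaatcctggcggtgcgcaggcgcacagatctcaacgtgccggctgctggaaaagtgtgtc
Dbp: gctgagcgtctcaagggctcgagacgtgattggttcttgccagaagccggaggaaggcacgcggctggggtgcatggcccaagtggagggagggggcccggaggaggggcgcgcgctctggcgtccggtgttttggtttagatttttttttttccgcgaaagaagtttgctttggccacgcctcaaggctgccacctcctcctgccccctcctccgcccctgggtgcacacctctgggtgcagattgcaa
Per1: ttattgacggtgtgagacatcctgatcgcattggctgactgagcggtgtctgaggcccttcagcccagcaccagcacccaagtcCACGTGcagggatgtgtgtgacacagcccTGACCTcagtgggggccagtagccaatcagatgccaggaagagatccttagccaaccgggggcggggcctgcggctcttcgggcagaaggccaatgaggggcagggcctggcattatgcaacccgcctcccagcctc
Cry1: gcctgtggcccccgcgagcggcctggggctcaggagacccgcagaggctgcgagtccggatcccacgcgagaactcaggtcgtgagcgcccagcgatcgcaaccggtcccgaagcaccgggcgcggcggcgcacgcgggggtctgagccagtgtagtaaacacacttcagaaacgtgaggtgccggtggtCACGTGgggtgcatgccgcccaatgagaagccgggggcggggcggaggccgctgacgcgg
Nfil3: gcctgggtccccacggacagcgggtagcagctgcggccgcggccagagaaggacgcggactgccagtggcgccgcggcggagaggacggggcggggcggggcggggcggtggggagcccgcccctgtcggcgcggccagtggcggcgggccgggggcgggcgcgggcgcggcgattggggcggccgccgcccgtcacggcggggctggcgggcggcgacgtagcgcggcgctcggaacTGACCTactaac

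The E-box lay 166 bases before the start site of Per1 and 60 bases before that of Cry1. A further one lay 153 bases before that of Bhlhe41 (chr6:145865421-145865670, minus strand, not printed). The ROR element lay 137 bases before the start site of Per1 and 12 bases before that of Nfil3. No window of Nr1d1, Dbp, Cry2 or Rora held either motif, and none of the 8 genes held the D-box (TTATGTAA or TTACGTAA) or the cAMP element (TGACGTCA). All motifs were searched on both strands, and the E-box and the cAMP element read the same on both. Among 32817 windows of 300 bases, 7.15% held the E-box, 16.3% the ROR element, 1.05% the D-box and 1.79% the cAMP element. A match is a run of letters, not a measured binding site, and a window without one says nothing about the factor.

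Before injury Nr1d1 and Dbp were far lower in KO cells, and the other 8 genes differed by much less and in both directions. Nr1d1, on the minus strand of chromosome 11 from 98767932 to 98775333 (GRCm38), had 333 and 345 CPM in the WT libraries and 41.9 and 43.2 CPM in the KO libraries. That was 7.96-fold lower in KO (log2 fold change -2.99, SE 0.123). Dbp, on the plus strand of chromosome 7 from 45705088 to 45710203, had 75.3 and 77.5 CPM in WT and 3.83 and 4.31 CPM in KO. That was 18.8-fold lower in KO (log2 fold change -4.23, SE 0.429). In both genes the WT libraries lay close together and far above the KO libraries. By size of the day 0 difference Dbp ranked 514 and Nr1d1 ranked 750 among 15890 genes. Exons of Nr1d1 and of Dbp overlap a gene on the opposite strand, Thra over 8.55% of the exon bases of Nr1d1 and Sphk2 over 18% of those of Dbp, and library strand was not recorded. Thra had 61.2 and 65 CPM in WT and 62.4 and 58.4 CPM in KO, and Sphk2 had 42.5 and 46 CPM in WT and 27.6 and 27.1 CPM in KO.

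**Figure D1:**
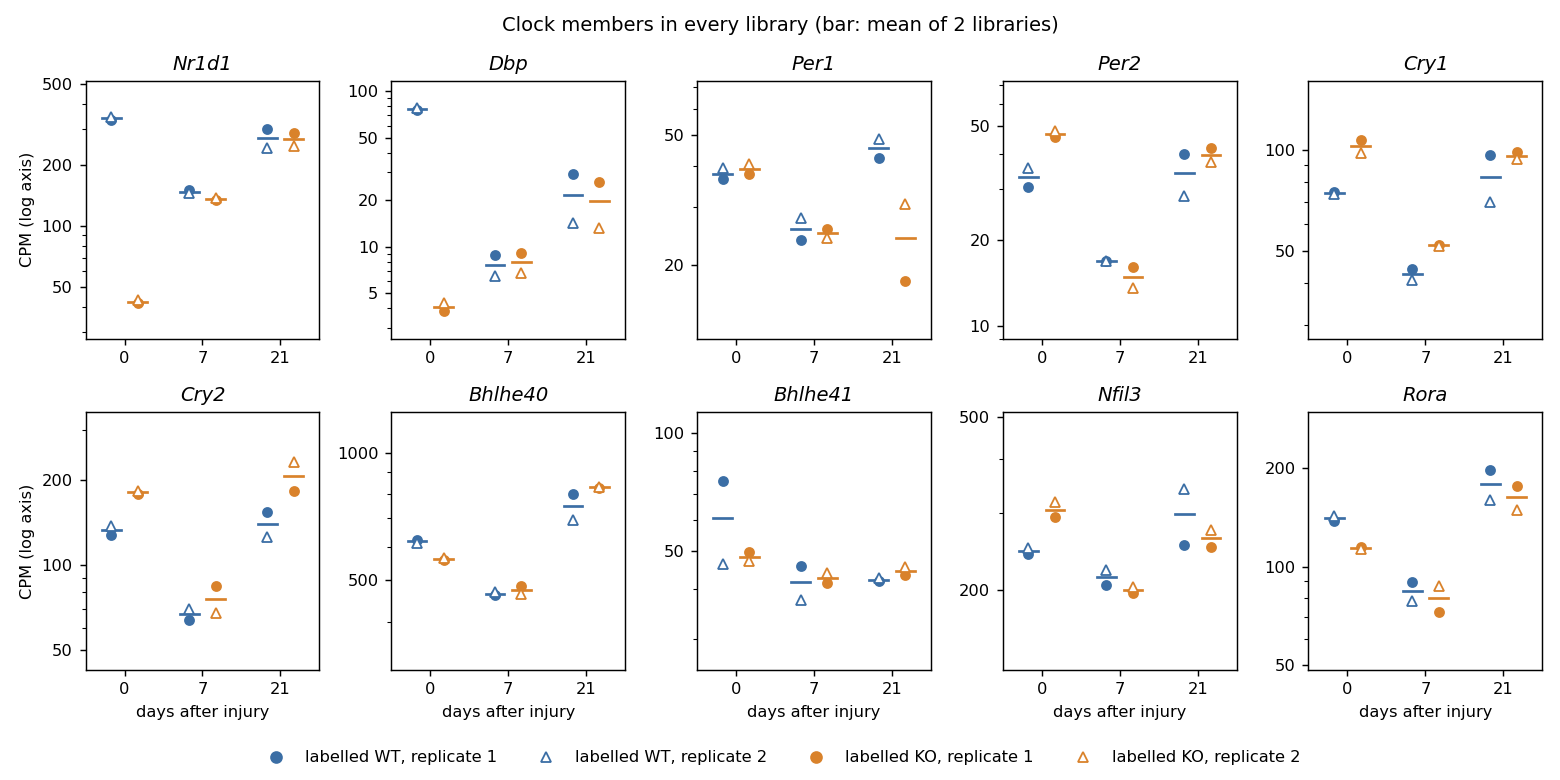
CPM (log axis, its range set for each gene) of the 10 genes in each of the 12 libraries, by day after injury; circles are replicate 1, triangles replicate 2, blue the libraries labelled WT, orange those labelled KO, and bars the mean of 2 libraries. Nr1d1 stands apart in the day 0 KO libraries, at 41.9 to 43.2 CPM. Dbp stands apart in the day 0 WT libraries, at 75.3 and 77.5 CPM. Its day 0 KO libraries, at 3.83 to 4.31 CPM, lie just below those of day 7. The genotypes lie close together at day 7.

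The Per and Cry genes, which encode the repressors proper, were not low in KO cells at day 0. Per1 had 36.5 and 39.4 CPM in WT and 37.9 and 40.5 CPM in KO, and the groups overlapped (log2 fold change 0.05, SE 0.205). Per2 had 30.7 and 35.8 CPM in WT and 45.8 and 48 CPM in KO, so both KO libraries were the higher (0.49, SE 0.164). Cry1, the later of the 2 Cry genes in phase, had 74.8 and 73.9 CPM in WT and 107 and 97.9 CPM in KO (0.46, SE 0.135). Cry2 had 128 and 137 CPM in WT and 178 and 183 CPM in KO (0.45, SE 0.145). Per2, Cry1 and Cry2 thus had no overlap between genotypes, with KO 1.36 to 1.41 times WT.

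The BHLHE genes and the remaining pair showed small differences. Bhlhe40 was at 624 and 613 CPM in WT and at 559 and 565 CPM in KO (log2 fold change -0.14, SE 0.0861). On the TPM scale, which is per transcript length and depth, its groups overlapped and the difference was 0.07, with the opposite sign. Bhlhe41 was at 75.2 and 46.3 CPM in WT and at 49.7 and 47.2 CPM in KO (-0.32, SE 0.189), and the groups overlapped. Its difference rests on the first WT library: it was 0.07 without WT replicate 1 and -0.62 without WT replicate 2. Nfil3, the repressor at D-boxes, was at 242 and 249 CPM in WT and at 294 and 318 CPM in KO (0.32, SE 0.128). Rora, the activator at ROR elements, was at 138 and 143 CPM in WT and at 115 and 113 CPM in KO (-0.30, SE 0.136). Both of these had no overlap between genotypes.

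In all, 5 of the 10 genes were higher and 5 lower in KO at day 0, and 4 in each direction had no overlap between the genotypes' libraries on the CPM scale. Over all 15890 genes tested, 75.1% had no overlap at day 0, 38% higher and 37.1% lower in KO. The median difference was -0.05 over the 10 genes and 0.00222 over all genes. Because this contrast chose the set, nothing is read from those counts. With a single time of sampling per library and no hour in the labels, a phase was not measured, and a shift in phase and a change in level cannot be told apart.

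Other genes of the loop were read from lists made with these data known. All 4 activators had higher values in KO at day 0 with no overlap, where 38% of all genes were higher with no overlap. Arntl, the partner of CLOCK, had 25.7 and 23.4 CPM in WT and 59.4 and 41.4 CPM in KO (log2 fold change 1.04, SE 0.342). Npas2, which can stand in for CLOCK, had 3.19 and 2.43 CPM in WT and 20.9 and 21.7 CPM in KO (2.93, SE 0.308). Clock was at 0.67 (SE 0.195) and Arntl2 at 1.11 (SE 0.398). Of 6 other E-box genes 5 were lower in KO: Nr1d2, the paralogue of Nr1d1, at -1.11 (SE 0.152), Per3 at -0.77 (SE 0.348), Ciart at -1.70 (SE 0.34), and the PAR bZIP genes Tef at -0.45 (SE 0.182) and Hlf at -0.86 (SE 0.425). Usp2 was at 0.18 (SE 0.156). The name E-box genes is that of the list: of these 6, only Tef and Ciart held CACGTG in a promoter window. Rorb, which encodes a further ROR receptor, was at -1.28 (SE 0.652) with at most 1.03 CPM in any day 0 library. The 6 REV-ERB targets read here (Arntl, Npas2, Clock, Nfil3, Cry1 and E2f8) were all higher in KO with no overlap, with a median of 0.85. All of them but E2f8 are activators or members already given, so the list adds only that gene. E2f8 had under 1 CPM in all 4 day 0 libraries (1.09, SE 0.549).

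**Figure D2:**
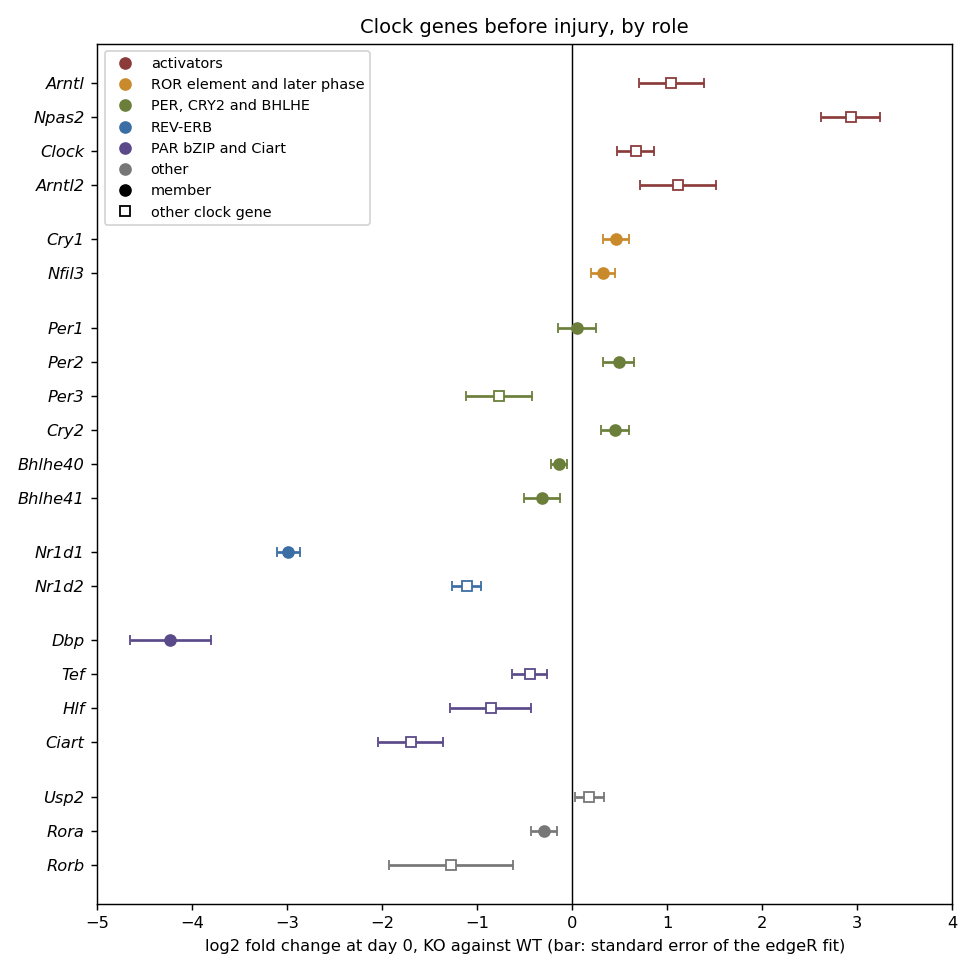
Log2 fold change at day 0, KO against WT, for the 10 genes (filled circles) and other clock genes (open squares) by role; bars are the standard error of the edgeR fit, 2 libraries per genotype. Arntl, Npas2, Clock and Arntl2 lie to the right, Nr1d1, Nr1d2, Dbp, Ciart, Hlf, Tef and Per3 to the left, and Per1, Bhlhe40 and Usp2 near 0.

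Set against Arntl within each library, Nr1d1 and Dbp were far lower in KO than in WT at day 0. The log2 CPM of Nr1d1 minus that of Arntl was 3.69 and 3.88 in WT and -0.50 and 0.06 in KO. The same difference for Dbp was 1.55 and 1.73 in WT and -3.93 and -3.25 in KO. At day 7 the genotypes lay together for Nr1d1, at 1.84 and 1.79 in WT and 1.81 and 1.73 in KO, and Dbp was at -2.24 and -2.68 in WT and -2.08 and -2.61 in KO. At day 21 the libraries parted by replicate number and not by label: Nr1d1 was at 3.52 and 3.06 in the replicate 1 libraries labelled WT and KO and at 2.20 and 2.00 in the replicate 2 libraries. Dbp was at 0.14 and -0.40 in replicate 1 and at -1.89 and -2.23 in replicate 2. The replicate 1 libraries are those with low Sesn2 at day 21, and there the low-Sesn2 libraries had the higher Nr1d1 and Dbp, the opposite of day 0.

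**Figure D3:**
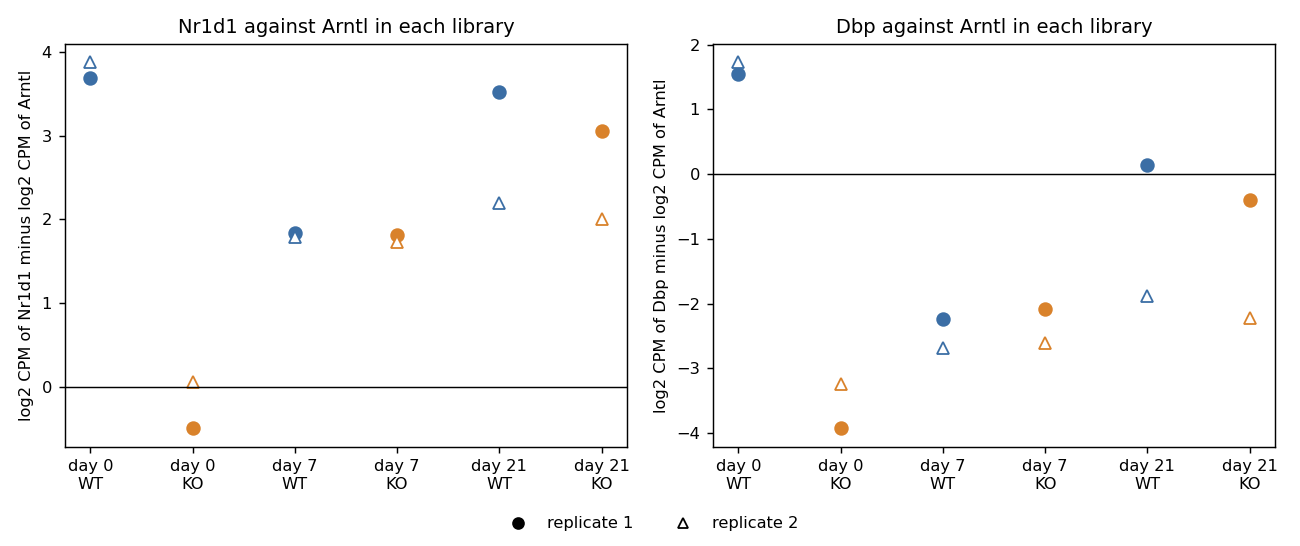
Log2 CPM of Nr1d1 (left) and of Dbp (right) minus that of Arntl in each of the 12 libraries, by day and labelled genotype; circles are replicate 1 and triangles replicate 2. The KO libraries are lowest at day 0, the genotypes meet at day 7, and at day 21 replicate 1 lies above replicate 2 under both labels.

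Other transcripts moved with genotype at day 0 as well, and their part in the clock differences was not tested. Of 9 muscle stem cell markers 8 were lower in KO (summed 1520 to 1530 CPM in WT and 962 to 1010 CPM in KO; median -0.94), and 4 of 5 fibro-adipogenic markers were lower (7500 to 7670 CPM against 5830 CPM). Skin genes such as Krt14 and Krt15 summed to 370 to 388 CPM in WT and 33 to 36.7 CPM in KO, with 4 of 7 at 0 in both KO libraries, and red cell genes summed to 609 to 623 CPM in WT and 112 to 130 CPM in KO. Endothelial markers, 4 of 4 higher in KO, summed to 121 to 144 CPM in WT and 202 to 210 CPM in KO. Immediate early genes, a set that can respond to tissue handling, summed to 21200 to 22100 CPM in WT and 25000 to 26300 CPM in KO, with 8 of 19 higher. Glucocorticoid-responsive genes summed to 5650 to 5670 CPM in WT and 6230 to 6330 CPM in KO, with 8 of 11 higher (the member Per1 is one of the 11), and temperature-responsive genes to 9920 to 10000 CPM in WT and 8030 to 8540 CPM in KO, with 7 of 8 lower. Cell cycle genes were lower for 8 of 8 (median -1.73), at 87.9 to 92.6 CPM summed in WT and 29.2 to 29.8 CPM in KO. Glial genes summed to 872 to 924 CPM in WT and 1160 to 1190 CPM in KO, with 1 of 3 higher. Muscle fibre genes summed to 61.2 to 70.8 CPM in WT and 46.3 to 52.4 CPM in KO, with 3 of 5 lower. In bulk RNA, fewer cells of a type and less RNA per cell cannot be told apart.

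At day 7 no clock gene differed between the genotypes by the test. By edgeR's quasi-likelihood test 0 of the 10 genes were called at an adjusted p under 0.05, where 1.76% of all genes (280 of 15890) were, and 2268 genes had an unadjusted p under 0.05, 0 of the members among them. DESeq2 and all other alternatives also called 0 of the 10. The differences ran from -0.19 (SE 0.168) for Per2 to 0.28 (SE 0.136) for Cry1. Cry1 came nearest the threshold, with 44.2 and 41 CPM in WT and 51.9 and 51.8 CPM in KO and an edgeR adjusted p = 0.392; over the alternatives its adjusted p went down to 0.0581. Nr1d1 had 151 and 145 CPM in WT and 135 and 137 CPM in KO (-0.12, SE 0.114, edgeR adjusted p = 0.727), without overlap. Dbp had 8.85 and 6.47 CPM in WT and 9.07 and 6.72 CPM in KO, with overlap (0.05, SE 0.386, edgeR adjusted p = 0.979). Of the other clock genes, 0 of 4 activators, 0 of 6 E-box genes and 0 of 10 clock modifiers (kinases and ubiquitin ligases of PER and CRY, and Timeless) were called. Whether the day 0 and day 7 differences differ was not tested, since day 0 chose the set.

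At day 21, by label, again 0 of the 10 genes were called by edgeR, against 0.0126% of all genes, with 2259 genes at an unadjusted p under 0.05. The 2 genes nearest to it were Per1 and Cry2. Per1 had 42.5 and 48.6 CPM in the libraries labelled WT and 17.8 and 30.6 CPM in those labelled KO, without overlap (-0.91, SE 0.208, edgeR adjusted p = 0.15). Cry2 had 154 and 126 CPM in those labelled WT and 183 and 231 CPM in those labelled KO, also without overlap (0.57, SE 0.145, edgeR adjusted p = 0.176). DESeq2, which made 54 false calls among 241 on simulated counts, called both (adjusted p = 0.00343 and 0.0159). Single libraries decide these calls: without KO replicate 2, Per1 was at -1.35 (edgeR adjusted p = 0.0354), and without WT replicate 1, Cry1 was at 0.47 (adjusted p = 0.033) and Cry2 at 0.72 (adjusted p = 0.0359). Leaving out the other library of the same group moved them the other way: Per1 was at -0.59 (adjusted p = 0.0846) without KO replicate 1, and Cry1 was at -0.01 (adjusted p = 0.991) and Cry2 at 0.43 (adjusted p = 0.389) without WT replicate 2. Without the 2 libraries that Sesn2 contradicts, 1 library a genotype was left and the lone library was assumed to vary like the other groups. That compares KO replicate 1 with WT replicate 2, so label and replicate number cannot be told apart. Per1 was then at -1.44, Cry1 at 0.51, Nfil3 at -0.44 and Cry2 at 0.55. Grouped by Sesn2 instead, Per1 had 42.5 and 17.8 CPM with low Sesn2 and 48.6 and 30.6 CPM with high Sesn2, so the groups overlapped. Cry2 overlapped too, at 154 and 183 CPM against 126 and 231 CPM. Nr1d1 was at -0.02 with all libraries and at 0.26 without the 2 contradicted libraries, and Dbp at -0.15 and at 0.89. With single libraries left out Dbp ran from -0.74 without KO replicate 1 to 0.47 without WT replicate 1, so its direction at day 21 depends on the library. Neither gene was called in any of 24 alternatives.

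**Figure D4:**
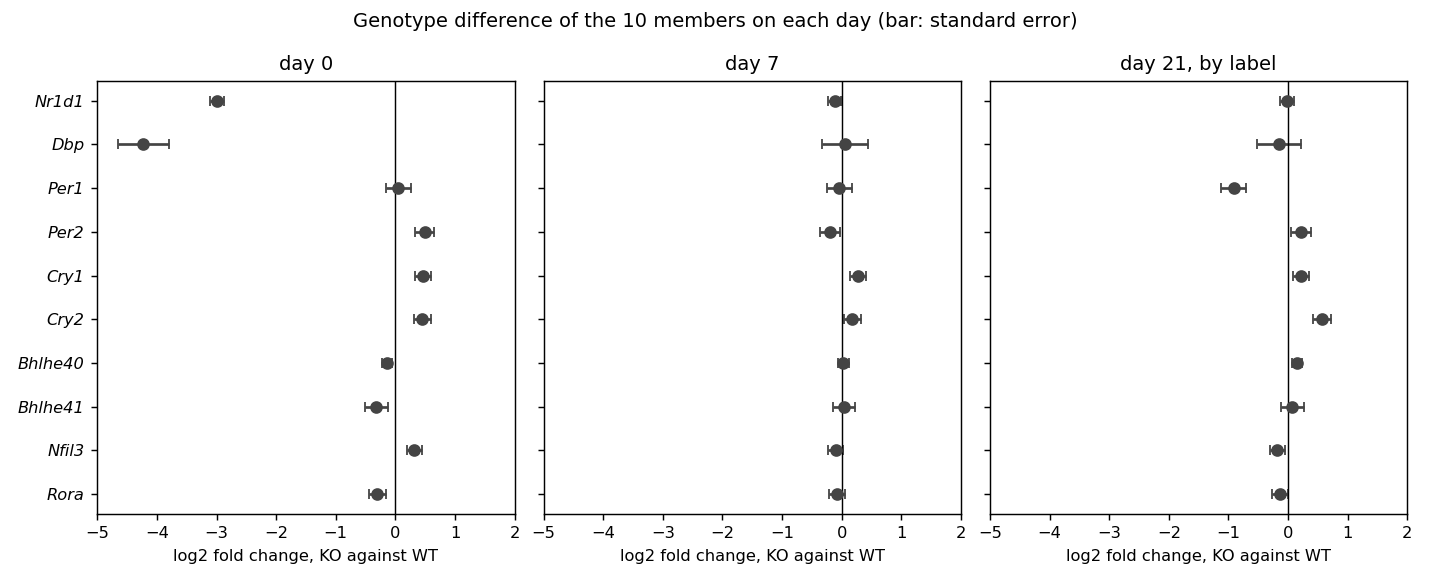
Log2 fold change of each of the 10 genes, KO against WT, at day 0, day 7 and day 21 (by label); points are edgeR estimates over 2 libraries per genotype and bars their standard errors. Nr1d1 and Dbp reach -2.99 and -4.23 at day 0 and lie within 0.15 of 0 at days 7 and 21.

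From day 7 to day 21 most of the 10 genes rose in both genotypes. In the libraries labelled WT 9 of the 10 genes were called higher by edgeR, all except Bhlhe41, where 20.3% of all genes were called higher. In those labelled KO 8 of 10 were called higher, all except Per1 and Bhlhe41, where 22.9% of all genes were. The median change of the 10 genes was 0.92 in WT and 0.93 in KO, beside -0.00377 and 0.00477 over all genes. Without the 2 libraries that Sesn2 contradicts, 1 day 21 library a genotype was left, so only changes are given. Per1 was then higher at day 21 in WT and lower in KO. The changes in WT were then 0.72 for Nr1d1, 0.90 for Dbp, 0.77 for Per2, 0.72 for Cry1, 0.92 for Cry2, 0.59 for Bhlhe40, 0.69 for Nfil3 and 0.94 for Rora. In KO they were 1.11 for Nr1d1, 1.74 for Dbp, 1.54 for Per2, 0.96 for Cry1, 1.29 for Cry2, 0.83 for Bhlhe40, 0.36 for Nfil3 and 1.17 for Rora. Bhlhe41 was at 0.05 in each genotype.

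Nr1d1, Dbp, Per2, Cry1 and Cry2 were called higher in both genotypes. Nr1d1 went from 151 and 145 CPM to 302 and 242 CPM in WT (log2 fold change 0.88, edgeR adjusted p = 0.00025) and from 135 and 137 CPM to 288 and 247 CPM in KO (0.97, adjusted p = 9.1e-05). Dbp went from 8.85 and 6.47 CPM to 29.1 and 14.1 CPM in WT (1.5, edgeR adjusted p = 0.0124) and from 9.07 and 6.72 CPM to 26 and 13.1 CPM in KO (1.30, adjusted p = 0.0203). The rise of Dbp rests on single libraries: in WT it was 0.90 (edgeR adjusted p = 0.0903) without day 21 replicate 1 and 1.29 (adjusted p = 0.0899) without day 7 replicate 2, and in KO it was 0.74 (adjusted p = 0.159) without day 21 replicate 1 and 1.10 (adjusted p = 0.123) without day 7 replicate 2. Per2 rose from 16.8 and 16.9 CPM to 39.9 and 28.5 CPM in WT (1.02, edgeR adjusted p = 0.000918) and from 16 and 13.5 CPM to 42.1 and 37.4 CPM in KO (1.43, adjusted p = 9.42e-05). Both Cry genes also rose, Cry1 by 0.97 and 0.89 and Cry2 by 1.06 and 1.44 on the log2 scale in WT and KO, with edgeR adjusted p-values between 4.37e-05 and 0.000435.

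Per1 was the member whose change differed most by label. It went from 23.7 and 27.7 CPM to 42.5 and 48.6 CPM in WT (0.83, edgeR adjusted p = 0.0094) and from 25.7 and 24.1 CPM to 17.8 and 30.6 CPM in KO (-0.04, adjusted p = 0.894). In WT the call is lost without day 7 replicate 1 (0.72, edgeR adjusted p = 0.0779), and in KO its direction turns with the library left out, from -0.46 (adjusted p = 0.0402) without day 21 replicate 2 to 0.31 (adjusted p = 0.112) without day 21 replicate 1. The test of the difference between the genotypes gave -0.87 (SE 0.292, edgeR adjusted p = 0.291), and 0 of the 10 genes were called in it, where 0.239% of all genes were; 1917 genes had an unadjusted p under 0.05. Without KO replicate 2 of day 21 the difference was -1.31, and without both contradicted libraries -1.39, where 1 day 21 library a genotype was left. It was -0.54 without KO replicate 1 of day 21 and -0.43 on log2 TPM, and 22 of 24 alternatives did not call it. Counts and TPM of Per1 ordered libraries differently: the first WT library of day 0 had 36.5 CPM and 18.9 TPM and the second 39.4 CPM and 14.8 TPM.

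Bhlhe40, the most abundant member, rose from 462 and 469 CPM to 799 and 695 CPM in WT (0.68, edgeR adjusted p = 0.000217) and from 485 and 465 CPM to 826 and 830 CPM in KO (0.80, adjusted p = 5.69e-05). Its paralogue Bhlhe41 was at 45.9 and 37.5 CPM at day 7 and 41.9 and 42.8 CPM at day 21 in WT (0.02, SE 0.189) and at 41.6 and 44.1 CPM and 43.4 and 45.7 CPM in KO (0.06, SE 0.19), with overlapping groups in both. Rora rose by 1.09 in WT and 1.03 in KO (edgeR adjusted p = 0.000217 and 0.000193). Nfil3 rose by 0.48 (edgeR adjusted p = 0.0128) in WT and 0.40 (adjusted p = 0.0253) in KO on counts, but on log2 TPM with limma it was at 0.35 (adjusted p = 0.103) and 0.37 (adjusted p = 0.0782). The Nfil3 call was also lost without day 7 replicate 1 (0.43, edgeR adjusted p = 0.094) or day 21 replicate 2 (0.25, adjusted p = 0.0676) in WT, and without either day 7 library (0.38, adjusted p = 0.103, and 0.42, adjusted p = 0.0751) or day 21 replicate 2 (0.36, adjusted p = 0.0898) in KO.

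**Figure D5:**
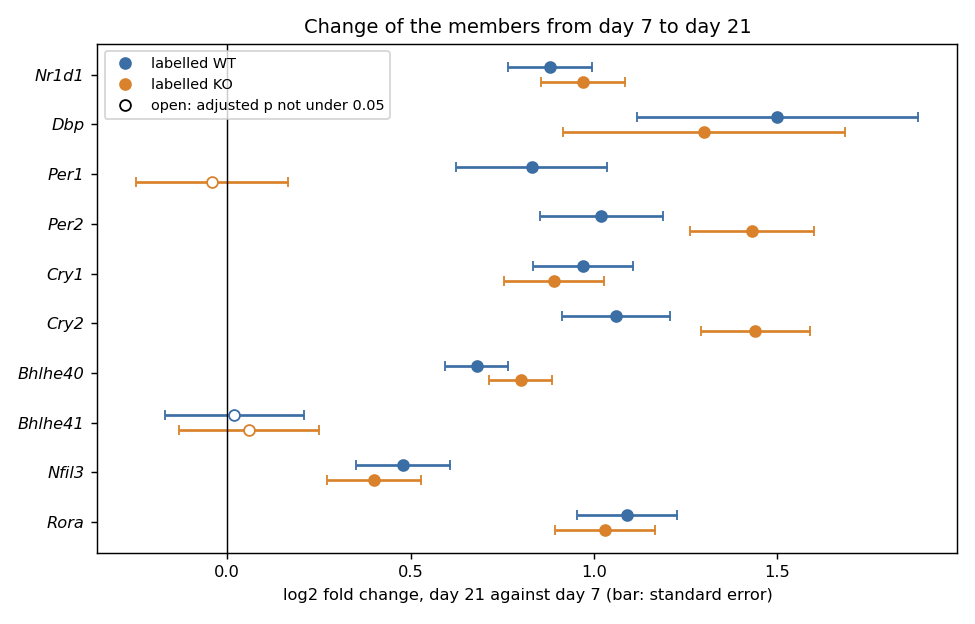
Log2 fold change from day 7 to day 21 in the libraries labelled WT (blue) and KO (orange) for the 10 genes; bars are standard errors, 2 libraries per group, and open points have an edgeR adjusted p that is not under 0.05. All genes but Bhlhe41, and Per1 in KO, lie above 0 with an adjusted p under 0.05.

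The other clock genes followed unequally. All 6 other E-box genes were called higher at day 21 in both genotypes, with median changes of 1.33 in WT and 1.16 in KO, as for Nr1d2 (1.30 and 1.49) and Hlf (2.14 and 1.64). Among the activators Clock was called in both (0.80 and 1.46), and Arntl was called in neither (-0.09 and 0.27, edgeR adjusted p = 0.862 and 0.554), so that 1 of 4 was called in each genotype. Of the 10 clock modifiers, 2 were called higher and 2 lower in WT, and 4 higher and 1 lower in KO, where 19.8% of all genes were called lower in WT and 23.6% in KO, so the WT counts are near the background in both directions. Arntl split by replicate number at day 21, at 26.3 and 34.4 CPM in replicate 1 and 52.5 and 61.5 CPM in replicate 2. Other lists rose over the same interval, and their part was not tested: 14 of 19 immediate early genes were called higher in WT and 16 of 19 in KO, and 8 and 6 of 11 glucocorticoid-responsive genes, among which Per1 is counted as 1 of the 8 in WT. Temperature-responsive genes were called higher for 5 of 8 in WT and 4 of 8 in KO and lower for 1 and 2, and hypoxia genes higher for 5 and 4 of 10 and lower for 2 and 3. Markers of other cell types moved too, and their part was likewise not tested. Glial genes were called higher for 3 of 3 in both genotypes (127 to 132 CPM summed at day 7 and 318 to 473 CPM at day 21 in WT, and 177 to 205 CPM and 459 to 510 CPM in KO). Red cell genes were called higher for 0 of 4 in WT and 4 of 4 in KO, and skin genes for 3 and 5 of 7. Endothelial markers were called higher for 0 of 4 in WT (93.9 to 205 CPM summed at day 7 and 160 to 163 CPM at day 21) and for 2 of 4 in KO (52.8 to 156 CPM and 246 to 274 CPM). Fibro-adipogenic markers were called higher for 2 of 5 in each genotype and lower for 1 in WT, with sums from 3000 to 3140 CPM to 5440 to 10300 CPM in WT and from 3420 to 4030 CPM to 8720 to 9820 CPM in KO. Muscle stem cell markers were called higher for 5 and 4 of 9 and lower for 1 and 3 in WT and KO. Muscle fibre genes fell, 4 of 5 called in each genotype, from 1320 to 1950 CPM summed to 197 to 256 CPM in WT and from 1840 to 2900 CPM to 378 to 484 CPM in KO. Cell cycle genes fell as well, 8 of 8 called in each.

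Against day 0, which has no test here, both genotypes met from opposite sides for Nr1d1 and Dbp. From day 0 to day 7 Nr1d1 went down in WT (-1.20, SE 0.115) and up in KO (1.68, SE 0.118), and Dbp went down in WT (-3.32, SE 0.403) and up in KO (0.96, SE 0.406). On the CPM scale all 10 genes were lower at day 7 than at day 0 in WT with no overlap, where 37.3% of all genes were, and in KO the other 8 were lower with no overlap, where 37% of all genes were. The 8 genes other than Nr1d1 and Dbp ran from -0.20 for Nfil3 to -0.98 for Per2 and Cry2 in WT and from -0.18 for Bhlhe41 to -1.67 for Per2 in KO. This depends on the scale: in TPM the libraries of the 2 days overlapped for Per1, Bhlhe41 and Nfil3 in WT and for Bhlhe41 in KO, and on log2 TPM the WT difference was -0.05 for Per1 and 0.03, with the opposite sign, for Nfil3. The genotypes are compared here through separate day 0 libraries that hold the gap itself. Other lists moved from day 0 to day 7, and their part was not tested. With no overlap, immediate early genes were lower for 16 of 19 in WT and 15 of 19 in KO and higher for 2 in each. Glial genes were lower for 3 of 3 in each. Muscle fibre genes were higher for 5 of 5 and cell cycle genes for 8 of 8 in each.

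Per transcript length the order of the 10 genes, by median TPM over the 12 libraries, was Bhlhe40 (299), Nfil3 (176), Nr1d1 (108), Rora (64.5), Cry2 (51.1), Cry1 (32.9), Per1 (16.2), Bhlhe41 (9.89), Dbp (9.63) and Per2 (7.14). Within libraries, Bhlhe40 was above Nfil3, Nfil3 above Nr1d1, Cry2 above Cry1, Cry1 above Per1 and Per1 above Bhlhe41 in 12 of 12. The other neighbours changed places: Nr1d1 was above Rora in 10 of 12 libraries, and in the day 0 KO group, at a mean of 21.2 TPM, it lay below Rora (61.7), Cry2 (65.9) and Cry1 (45.2). Rora was above Cry2 in 9 of 12 libraries, Bhlhe41 above Dbp in 6 of 12 and Dbp above Per2 in 10 of 12. Ranges over all libraries overlapped for each pair of neighbours, as for Bhlhe41 (8.81 to 15.3 TPM) and Dbp (3.04 to 58.3 TPM). Dbp had the widest range of the 10, 19.2-fold between its highest and lowest library, followed by Nr1d1 at 7.84-fold, and Nfil3 and Bhlhe41 the narrowest at 1.74-fold.

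Across the 12 libraries, 10879 genes with a mean of at least 5 CPM were ranked by the likeness of their log2 CPM to Nr1d1 and to Dbp, as a description. The closest to Nr1d1 were Wnt5a (r = 0.98), Scx (0.941), Kazald1 (0.939), Krt15 (0.936) and Rad52 (0.929), and to Dbp they were Jmjd8 (0.928), Slbp (0.926), Rplp0 (0.923), Krt17 (0.921) and Ctsl (0.92). Nr1d1 and Dbp had r = 0.856 with each other, and Dbp had r = -0.771 with Arntl. Per1, Per2, Cry1 and Cry2 had r between -0.077 and 0.000398 with Nr1d1. The genes named for Nr1d1 had their lowest group mean in day 0 KO, and those named for Dbp their highest in day 0 WT. Jmjd8 and Rplp0 were not lowest in day 0 KO. Krt15 and Krt17 belong to the skin list above.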

How the data were processed

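Full-length cDNA of sorted cells (SmartSeq v4, Nextera XT; kits that do not mark strand) was sequenced as 76-base single-end reads, per the labels' protocols. The submitters' processing notes name kallisto 0.46.1, mm10 and GRCm38.p6, with no role stated. The deposited table of estimated counts per gene is not normalized, and the deposited TPM table is scaled by transcript length and depth, per the file headers and values. The authors also deposited regularised log2 values corrected for a batch; neither the tool nor the batch is given in the sources used here.

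Estimated counts were rounded and fitted with edgeR 4.0.16 in R 4.3.3 (filterByExpr, TMM, quasi-likelihood F test, 1 mean per group, 12 libraries), with Benjamini-Hochberg adjustment over 15890 genes and calls at an adjusted p under 0.05. CPM use TMM-scaled library sizes. DESeq2 1.42.0, limma 3.58.1 on log2(TPM + 1) and log2(TPM + 0.1) and on the regularised log2 values, other filters and scalings, a replicate block and leaving out libraries were alternatives. The fits were checked on simulated counts with 200 changed genes at day 7. There edgeR made 7 false calls among 184, limma 12 among 190 and DESeq2 54 among 241. The members and gene lists were chosen with earlier results of these data known; the text names all members, the other clock genes with values at day 0 (1 listed gene is not reported here), and the 5 genes most like Nr1d1 and Dbp. Positions are from GENCODE M21 (GRCm38) and promoters from RefSeq.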

Additional observations from a re-analysis of the deposited data

Results flagged for a closer look

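The items here are members whose libraries moved in opposite directions in 2 groups under the same contrast, with no overlap on the CPM scale. No change that uses day 0 was tested, nor whether the paired values differ. The edgeR test did not call the day 7 differences of Per2 and Nfil3 (adjusted p = 0.699 and 0.806) or the day 21 difference of Bhlhe40 (0.476). From day 0 to day 7, Nr1d1 changed by -1.20 (log2) in WT and by 1.68 in KO, and Dbp by -3.32 and 0.96. From day 0 to day 21, by label, Nr1d1 changed by -0.32 in WT and by 2.65 in KO, Dbp by -1.82 and 2.26, Per1 by 0.26 and -0.69, and Nfil3 by 0.28 and -0.22. Single libraries move several of these: Nr1d1 in WT was at -0.49 without day 21 replicate 1 and -0.16 without day 21 replicate 2, Dbp in WT at -2.44 and -1.39 without the same libraries, Nfil3 in WT was at 0.05 without day 21 replicate 2 and 0.48 without day 21 replicate 1, and Per1 in KO at -1.14 without day 21 replicate 2 and -0.37 without day 21 replicate 1. Without both libraries that Sesn2 contradicts, the day 0 to day 21 change in WT and KO was -0.49 and 2.76 for Nr1d1, -2.44 and 2.68 for Dbp, 0.35 and -1.14 for Per1, and 0.48 and -0.29 for Nfil3. Between genotypes, Per2 differed by 0.49 at day 0 and by -0.19 at day 7, Nfil3 by 0.32 and -0.10, and Bhlhe40 by -0.14 at day 0 and 0.15 at day 21 by label. The day 7 difference of Per2 ran from -0.32 without KO replicate 1 to -0.07 without KO replicate 2, and that of Nfil3 from -0.16 without WT replicate 1 to -0.05 without WT replicate 2. For Bhlhe40 the day 0 difference was 0.07 on log2 TPM, with no opposition then, and the day 21 difference was 0.05 without WT replicate 2 and 0.26 without WT replicate 1. All of them use the day 0 libraries, from which the set was proposed, and those at day 21 use the libraries that Sesn2 contradicts.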

How the results depend on the processing

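With 2 libraries per group the smaller changes depend on single libraries. The count of members called at day 21 between genotypes, 0 by edgeR, was 2 with DESeq2, 1 with the batch-corrected regularised log2 values, 3 without both day 21 libraries that Sesn2 contradicts (an alternative added after the data were seen), and 0 to 2 when each library was left out; the genotype difference of the day 7 to day 21 change gave 1 member without both of those libraries and 0 to 1 on leaving out each library. From day 7 to day 21, asking also for a log2 change of 1 or more in size left 4 members in WT and 4 in KO, and leaving out each library gave 7 to 9 in WT and 6 to 8 in KO. With the cut at a log2 change of 1, 2569 of all 15890 genes were called in WT and 3211 in KO, in either direction. The day 0 genotype difference of Dbp minus Arntl was -5.23 on log2 CPM and -4.82 on log2 TPM. From day 7 to day 21 Dbp in KO missed the threshold with no filter on low counts (adjusted p = 0.0521) and Nfil3 in WT with only the groups compared in the fit (0.0618). No direction of a called member reversed, and 0 members were called at day 7 in any of the alternatives run. Counts over all genes varied widely: at day 7, 280 by edgeR, 795 by DESeq2 and 15 to 1169 over the alternatives; at day 21 by label, 2, 475 and 0 to 1200; for the genotype difference of the change, 38, 365 and 0 to 881. Replicate numbers did not pair the samples (correlation of same-numbered deviations -0.143 to 0.07), and the replicate block left the members called at 0 (day 7), 0 (day 21), 9 (WT) and 8 (KO), with 204 genes called at day 7. With the day 7 KO numbers exchanged, tried because of the correlation of -0.143, the block called 315 genes at day 7 and 0 members. The lowest value of a member in any library was 3.83 CPM, for Dbp, where depth limits precision most.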
